A study of Rattus norvegicus with 8 samples.

Results

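The insulin-like growth factor (IGF) system was followed in rat brain tissue injected with an inactivated baculovirus vector or with saline. The members were 10 genes: the ligands Igf1 and Igf2, the receptors Igf1r and Igf2r, and the binding proteins Igfbp2, Igfbp3, Igfbp4, Igfbp5, Igfbp6 and Igfbp7. They were chosen by name, as every probe set whose platform annotation gives 1 single symbol among these 10. That gave 23 of the 31099 probe sets on the array, for 10 of the 14217 genes with a probe set of their own. The array was an Affymetrix rat genome expression array, which reads a gene mostly near its 3′ end with 1 or more probe sets.

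All 8 arrays came from adult male Wistar rats weighing 250 to 300 g, whose age is not given. For 4 arrays a dose of 50000000 baculovirus vector particles in 5 µl went into the striatum, a part of the basal ganglia that receives input from cortex. Baculoviruses infect insects and enter mammalian cells without replicating in them. Before injection 1 hour of ultraviolet light at 254 nm had made the vector inactive. For the other 4 arrays the same volume, 5 µl, was phosphate-buffered saline (PBS). Both groups therefore carry a needle injury, and tissue was taken 48 hours after injection. The design text mentions 7 rats with PBS given on the opposite side, but which rat gave which array is not in the labels. Some arrays may share an animal, and p-values here reflect only how far these samples spread.

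Igf1 and Igf2 are small secreted relatives of insulin that promote growth and survival of cells. Both signal through the tyrosine kinase receptor encoded by Igf1r, while the Igf2r product binds Igf2 and carries it to lysosomes for breakdown. IGF binding proteins hold the ligands outside cells, which can restrict or prolong their action. In the adult brain Igf2 and Igfbp2 are known from the leptomeninges and the choroid plexus, and Igf1 can be made by neurons, microglia and vessel cells.

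No IGF member differed between the groups beyond the spread of the arrays after adjustment. The ligand Igf2 and the binding protein Igfbp2 had the largest differences, both 1.19-fold higher after inactivated baculovirus. Igfbp2 alone was under an unadjusted p of 0.05. Igfbp5 and Igfbp6 had nearly equal means in the groups. Igf2, Igfbp2, Igfbp3 and Igfbp4 were each lowest on PBS replicate 3. Of the 6 pairs among them, 3 passed for Pearson's r over the arrays after adjustment. By rank correlation only Igf2 with Igfbp2 passed.

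After inactivated baculovirus 16 of all 23 member probe sets were higher on average and 7 lower. Among all probe sets tested, 53.7% had a higher mean. The test was limma on log2(intensity + 16) with Benjamini-Hochberg adjustment over 18625 probe sets, those with a mean above the 40th percentile. Of the members 15 probe sets passed that level filter, at least 1 for each gene, and 8 did not. None of the 15 passed an adjusted p of 0.05, where 0% of all tested probe sets passed in either direction. At an unadjusted p under 0.05 there was 1 member, Igfbp2, against 6.73% of all tested, and 2.51% of all tested were higher at that level, as Igfbp2 was. The groups overlapped for every member probe set tested, while 3.86% of all tested probe sets had groups that did not overlap. The methods' t-test gave 0 calls after adjustment as well, and 1251 probe sets at an unadjusted p under 0.05.

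With each gene represented by its probe set with the highest mean, all 10 genes had a higher mean log2 level after inactivated baculovirus, against 55.7% of all genes tested. On the linear scale Igfbp6 went the other way, with 115 ± 10.2 against 117 ± 30.3 (SD, n = 4 each). Their median log2 fold change was 0.08, and it was 0.02 over all genes tested. Differences ran from 0.00 to 0.25 on the log2 scale. With any 1 array left out, Igf2, Igf2r, Igfbp2, Igfbp4 and Igfbp7 kept their direction and the other 5 genes turned at least once. With PBS replicates 3 and 4 left out together, 7 of the 10 genes turned to a lower mean. That setting was chosen after the data were seen, and it removes the arrays on which 7 of the 10 genes were lowest, so a smaller difference is built into it. Fold changes are on the log2(intensity + 16) scale, so changes of dim probe sets come out smaller than they are. The order of the genes depends on it. With 1 added in place of 16, Igfbp3 had the largest log2 fold change, 0.30, against 0.26 for Igf2 and 0.25 for Igfbp2.

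**Figure D1:**
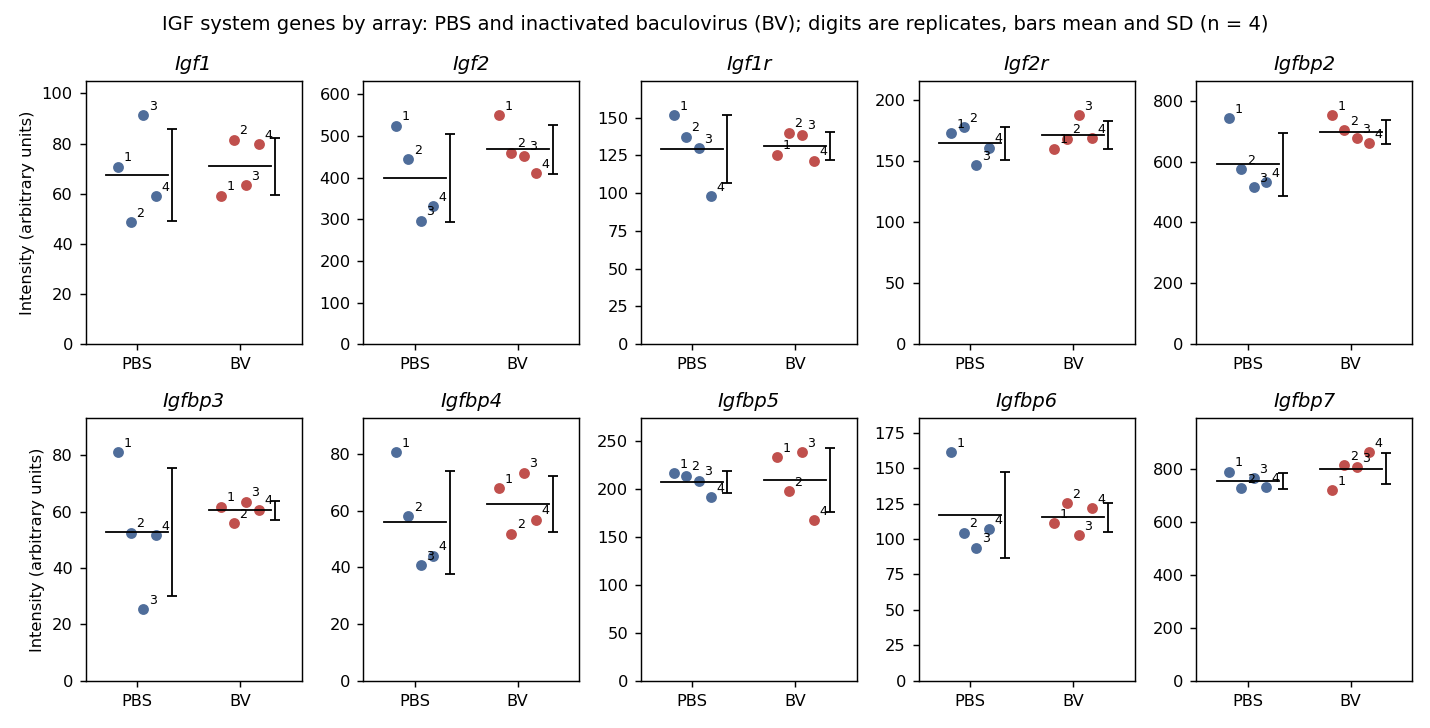
Intensity in arbitrary units (vertical axis, from 0) of the representative probe set of each IGF gene on the 4 PBS arrays (blue) and the 4 inactivated baculovirus arrays (BV, red). Digits are replicate numbers, horizontal lines group means and bars SD. The groups overlap in all 10 panels, and PBS replicate 3 is lowest for Igf2, Igfbp2, Igfbp3 and Igfbp4.

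The ligand Igf2 was read by 1 probe set above the filter. Its intensity after inactivated baculovirus was 549 on replicate 1, 460.1 on replicate 2, 452 on replicate 3 and 410.0 on replicate 4. After PBS it was 525, 445, 297 and 331 on replicates 1 to 4. The lowest values belonged to PBS replicates 3 and 4, and both other PBS arrays lay within the range of the baculovirus arrays. The group means were 468 ± 58.5 and 399 ± 105 (SD, n = 4 each). Igf2 thus had a log2 fold change of 0.25, with a limma adjusted p of 0.774 and a 95% interval from -0.07 to 0.57. Without PBS replicate 3 it was 0.12, without PBS replicate 4 it was 0.17, and without PBS replicate 1 it was 0.39. With PBS replicates 3 and 4 both left out it was -0.05.

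The binding protein gene Igfbp2, whose product is among the IGF binding proteins of cerebrospinal fluid, had 1 probe set. After inactivated baculovirus it measured 752, 703, 676 and 660.5 on replicates 1 to 4. After PBS it measured 743, 574, 515 and 532. PBS replicate 1 lay among the baculovirus arrays, and the other 3 PBS arrays lay below all of them. The means were 698 ± 40.1 and 591 ± 104 (SD, n = 4 each). The log2 fold change of 0.25 had a 95% interval of 0.03 to 0.47, an unadjusted p of 0.0298 and a limma adjusted p of 0.717. Leaving out 1 array at a time gave 0.19 to 0.36, and leaving out PBS replicates 3 and 4 together gave 0.09.

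The promoters of Igf2 and Igfbp2 are shown because these genes had the largest differences and moved together across arrays. The sequences are those of RefSeq on build GRCr8, from 250 bases before to 50 after an annotated start, with 2 starts listed for Igf2. Capitals mark GC boxes (GGGCGG, searched on both strands), to which Sp-family transcription factors bind.
Igf2, chr1:207253931-207254230, minus strand: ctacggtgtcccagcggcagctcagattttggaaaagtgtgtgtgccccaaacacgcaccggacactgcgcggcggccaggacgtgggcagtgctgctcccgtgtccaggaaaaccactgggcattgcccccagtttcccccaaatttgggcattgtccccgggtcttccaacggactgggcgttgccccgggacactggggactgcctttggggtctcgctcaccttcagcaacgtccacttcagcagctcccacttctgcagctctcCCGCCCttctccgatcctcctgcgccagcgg
Igf2, chr1:207250426-207250725, minus strand: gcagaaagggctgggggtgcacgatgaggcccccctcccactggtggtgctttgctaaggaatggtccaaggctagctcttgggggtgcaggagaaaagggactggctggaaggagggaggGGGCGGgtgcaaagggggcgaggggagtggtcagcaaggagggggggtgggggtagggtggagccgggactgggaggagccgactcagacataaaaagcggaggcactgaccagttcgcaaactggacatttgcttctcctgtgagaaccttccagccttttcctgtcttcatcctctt
Igfbp2, chr9:81864561-81864860, plus strand: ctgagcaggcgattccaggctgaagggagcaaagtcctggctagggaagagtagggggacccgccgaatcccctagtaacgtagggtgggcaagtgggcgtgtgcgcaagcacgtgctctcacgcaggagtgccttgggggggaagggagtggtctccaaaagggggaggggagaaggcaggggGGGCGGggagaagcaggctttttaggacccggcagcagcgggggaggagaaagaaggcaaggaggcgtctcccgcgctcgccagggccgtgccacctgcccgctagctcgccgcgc

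Each of these 3 windows held 1 GC box, a motif present in 33.1% of the 33469 RefSeq promoters of this length. Their GC contents were 63.3%, 60.7% and 66.7%, against a median of 51.7% over all promoters. GC boxes were not particular to them, with 1 for Igf1r, 2 for Igf2r and 4 for Igfbp7. Letters of the gamma-activated site (TTCNNNGAA, both strands) were in none of the 11 windows listed for the 10 genes and in 8.87% of all promoters. A match or its absence describes the letters of the window only.

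Igf1, the other ligand, was read by its brighter probe set at 59.2, 81.5, 63.4 and 79.8 after inactivated baculovirus (replicates 1 to 4). After PBS it was at 70.8, 48.7, 91.2 and 59.0. The highest and the lowest array were both PBS arrays. Between the groups the log2 fold change came to 0.08 (limma adjusted p = 0.937, 95% interval -0.25 to 0.40), and it turned to -0.04 without PBS replicate 2. The other tested probe set stood at 0.08 as well, with 39.3 ± 4.07 against 36.1 ± 3.04 in intensity (SD, n = 4 each). Over the 8 arrays these probe sets of Igf1 had little relation (r = 0.0568, exact permutation p = 0.896, Benjamini-Hochberg 0.896 over 5 such pairs, and rho = 0.0952, exact permutation p = 0.840). Without PBS replicates 2 and 3, the arrays farthest from the median, r was -0.708.

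The 3 other probe sets of Igf2 and the third of Igf1 lay below the level filter. Those of Igf2 measured 2.56 ± 0.727 against 2.79 ± 1.31, 3.26 ± 1.99 against 1.32 ± 0.271 and 2.11 ± 0.723 against 2.31 ± 0.932 (baculovirus against PBS, SD, n = 4 each). That of Igf1 measured 7.28 ± 2.96 against 8.42 ± 4.48. Igf2 is therefore described here by a single probe set.

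Igf1r encodes the receptor that relays both ligands into cells. Its brighter probe set measured 126, 140.0, 139 and 122 after inactivated baculovirus and 152, 137, 130 and 98.1 after PBS. PBS replicates 1 and 4 were the highest and the lowest array. On the log2 scale the difference was 0.03 (limma adjusted p = 0.972, 95% interval -0.21 to 0.28) and turned to -0.08 without PBS replicate 4. The other probe set measured 97.7 ± 7.66 against 83.6 ± 16.6 (SD, n = 4 each), a log2 fold change of 0.20 (95% interval -0.06 to 0.46, limma adjusted p = 0.772). Over the 8 arrays the pair had r = -0.289 (exact permutation p = 0.463, Benjamini-Hochberg 0.579) and rho = -0.310 (exact permutation p = 0.462), and r = 0.122 without PBS replicates 1 and 4.

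Igf2r, the scavenging receptor, also serves as a mannose 6-phosphate receptor for lysosomal enzymes. On its representative probe set it measured 160.0, 168, 187 and 169 after inactivated baculovirus and 173, 177, 146 and 161 after PBS. The ranges overlapped, from 160.0 to 187 and from 146 to 177, with a log2 fold change of 0.05 (95% interval -0.13 to 0.24, limma adjusted p = 0.921). The other probe set stood at -0.10 (95% interval -0.31 to 0.11, limma adjusted p = 0.857), so its estimate had the opposite sign. The mean of both probe sets gave -0.02. Their r over the 8 arrays was 0.359 (exact permutation p = 0.388, Benjamini-Hochberg 0.579) and rho 0.619 (exact permutation p = 0.115), with r = 0.750 without baculovirus replicate 3 and PBS replicate 3.

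Igfbp3 encodes the main carrier of IGFs in blood. Its tested probe set measured 61.8, 55.8, 63.4 and 60.7 after inactivated baculovirus. After PBS it measured 81.1, 52.5, 25.5 and 51.7. The baculovirus arrays were tightly grouped, and PBS replicates 1 and 3 were the highest and the lowest array. Between the groups the log2 fold change came to 0.22 (limma adjusted p = 0.832, 95% interval -0.20 to 0.63) and became -0.00456 without PBS replicate 3. The other probe set was below the filter at 15.7 ± 9.07 against 16.0 ± 5.68 (SD, n = 4 each).

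Igfbp4, whose product mostly inhibits IGF action until the protease pappalysin cuts it, was read by 1 probe set. It measured 67.8, 51.8, 73.3 and 56.7 after inactivated baculovirus, and 80.6, 58.0, 40.7 and 44.1 after PBS. Again PBS replicate 1 was the highest array and PBS replicates 3 and 4 were the lowest. On the log2 scale the difference was 0.15 (limma adjusted p = 0.866, 95% interval -0.19 to 0.49). It was 0.05 without PBS replicate 3 and 0.30 without PBS replicate 1, and -0.12 without PBS replicates 3 and 4 together.

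Igfbp5 encodes a binding protein that attaches to extracellular matrix. On its brightest probe set it measured 233, 197, 238 and 167 after inactivated baculovirus and 216, 213, 208 and 191 after PBS. The PBS arrays were close together and lay inside the range of the baculovirus arrays. Between the groups the log2 fold change came to 0.000826 (limma adjusted p = 0.999, 95% interval -0.22 to 0.23). A further tested probe set stood at -0.11 (95% interval -0.40 to 0.18, limma adjusted p = 0.885), and 3 probe sets were below the filter with group means between 1.61 and 3.52. The tested pair had r = 0.508 over the 8 arrays (exact permutation p = 0.188, Benjamini-Hochberg 0.470) and rho = 0.357 (exact permutation p = 0.389), and r = 0.295 without baculovirus replicates 3 and 4. Igfbp5 lies next to Igfbp2 among protein-coding genes of the RefSeq table for GRCr8, and Igfbp3 next to Igfbp1. The neighbours Igfbp2 and Igfbp5 had r = 0.275 over the 8 arrays (exact permutation p = 0.514, Benjamini-Hochberg 0.643 over 45 pairs) and rho = 0.500 (exact permutation p = 0.216), and r = 0.223 without PBS replicates 3 and 4.

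Igfbp6, which binds IGF-II in preference to IGF-I, measured 111, 125, 103 and 122 on its representative probe set after inactivated baculovirus. After PBS it measured 161, 104, 93.8 and 107. PBS replicate 1 stood above all other arrays, and the remaining arrays of both groups overlapped. On the log2 scale the difference was 0.01 (limma adjusted p = 0.998, 95% interval -0.28 to 0.30). The other probe set stood at 0.17 (95% interval -0.08 to 0.43, limma adjusted p = 0.788), with PBS replicate 3 lowest at 54.6 and all other arrays between 72.1 and 90.7. The pair had r = 0.668 (exact permutation p = 0.09998, Benjamini-Hochberg 0.470) and rho = 0.571 (exact permutation p = 0.151), and r = 0.213 without PBS replicates 1 and 3.

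Igfbp7, a relative with low affinity for IGFs that is common in vessel walls, had the narrowest spread of the 10 genes. Its probe set measured 720.3, 815, 806 and 864 after inactivated baculovirus and 790.4, 728, 766 and 732 after PBS. Baculovirus replicate 1 was the lowest array and replicate 4 the highest. Between the groups the log2 fold change came to 0.08 (limma adjusted p = 0.822, 95% interval -0.07 to 0.24). This interval covers folds from 0.954 to 1.18.

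**Figure D2:**
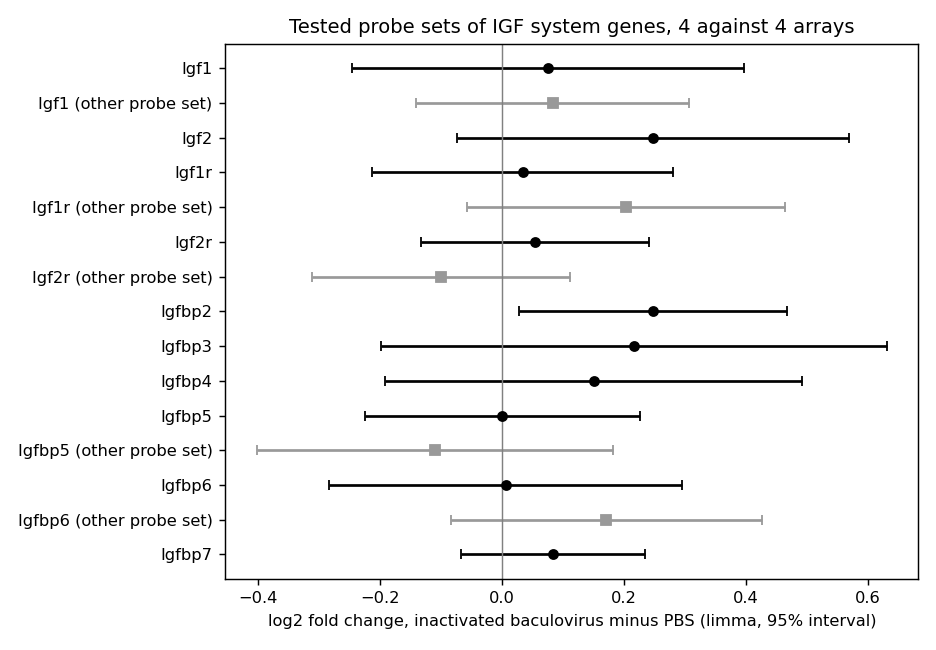
log2 fold change with 95% interval (horizontal axis, inactivated baculovirus minus PBS) of the 15 tested probe sets of the IGF genes, from limma with 4 arrays in each group. Black circles are the representative probe sets and grey squares the others. The interval of Igfbp2, 0.03 to 0.47, is the one that leaves out 0, and no probe set passed after adjustment.

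The spread of the members differed between the groups in most genes, with no test made of it. The SD of the log2 level was larger among PBS arrays than among baculovirus arrays for 8 of the 10 genes, while 63.9% of all genes tested had the larger SD in PBS. It was 0.50 in PBS against 0.06 after inactivated baculovirus for Igfbp3, and 0.36 against 0.17 for Igf2. Igfbp5 and Igfbp7 were the exceptions, with 0.07 against 0.22 and 0.06 against 0.11. The lowest of the 8 arrays was PBS replicate 3 for 6 of the 10 genes and PBS replicate 4 for 1. Among all genes tested, 28.9% were lowest on either of these arrays. PBS replicate 1 was the highest array for 4 of the 10 genes, against 15.0% of all genes tested.

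Igf2 and Igfbp2 had the closest pair of profiles over the 8 arrays. Pearson's r reached 0.916 (Benjamini-Hochberg 0.0212 over 45 pairs from an exact permutation p of 0.000942) while rho, Spearman's coefficient, was 0.976 (exact permutation p = 0.000397, Benjamini-Hochberg 0.0179). Without PBS replicates 3 and 4, the arrays farthest from the median of Igf2, r was 0.710. Of the other pairs, 2 passed for r after adjustment. Igfbp3 and Igfbp4 had r = 0.837 (exact permutation p = 0.000794, Benjamini-Hochberg 0.0212) and rho = 0.929 (exact permutation p = 0.00223, Benjamini-Hochberg 0.0502), and r = 0.822 without PBS replicates 1 and 3. Igfbp2 and Igfbp3 had r = 0.790 (exact permutation p = 0.00176, Benjamini-Hochberg 0.0264) and rho = 0.833 (exact permutation p = 0.0154, Benjamini-Hochberg 0.231), and r = 0.652 without PBS replicates 3 and 4. The remaining 42 of 45 pairs did not pass 0.05 for r after adjustment. Among them Igf2 and Igfbp4 had r = 0.870 (exact permutation p = 0.00578, Benjamini-Hochberg 0.0594), rho = 0.762 (exact permutation p = 0.0368, Benjamini-Hochberg 0.331) and r = 0.601 without PBS replicates 3 and 4. Igf2 and Igfbp3 had r = 0.821 (exact permutation p = 0.00660, Benjamini-Hochberg 0.0594), rho = 0.786 (exact permutation p = 0.0279, Benjamini-Hochberg 0.314) and r = 0.520 without the same arrays. Igfbp2 and Igfbp4 had r = 0.813 (exact permutation p = 0.0184, Benjamini-Hochberg 0.138), rho = 0.738 (exact permutation p = 0.0458, Benjamini-Hochberg 0.344) and r = 0.465 without them.

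An r above 0.7 was found in 8 of the 45 pairs, 17.8%, and in 4.59% of all pairs of tested genes. Pairs among Igf2, Igfbp2, Igfbp3 and Igfbp4 were 6 of them. Igf1 was not in any, and stood at r = -0.359 with Igf2 (exact permutation p = 0.381, Benjamini-Hochberg 0.604, and rho = -0.167, exact permutation p = 0.703). Without PBS replicates 2 and 3 that r was 0.0760. Its highest r was with Igfbp7, at 0.642 (exact permutation p = 0.0881, Benjamini-Hochberg 0.361, and rho = 0.643, exact permutation p = 0.0962), and 0.851 without PBS replicates 2 and 3.

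**Figure D3:**
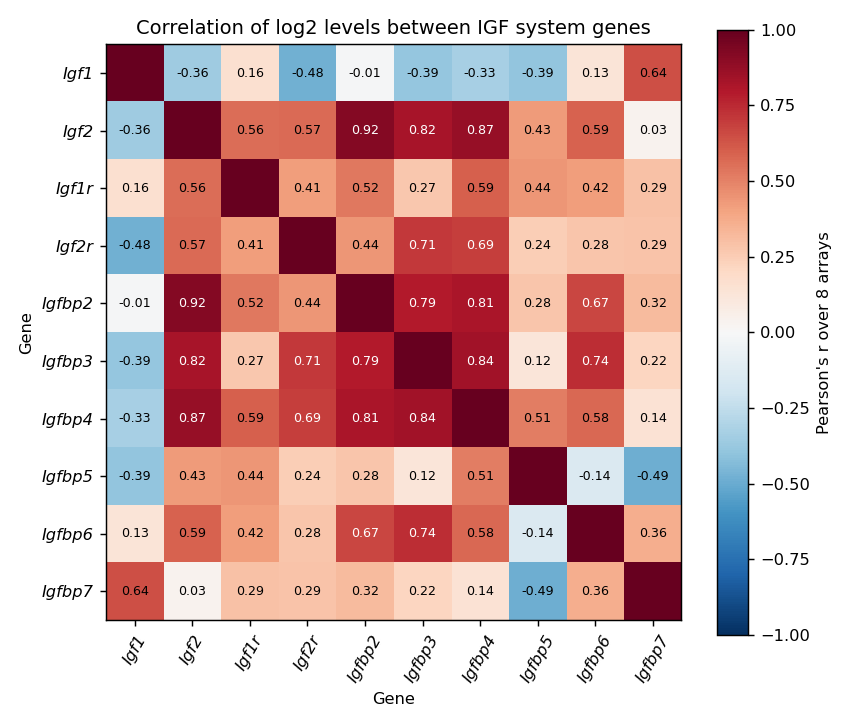
Pearson's r of log2 levels over the 8 arrays for each pair of the 10 IGF genes (both axes list the genes, colour from -1 to 1). Igf2, Igfbp2, Igfbp3 and Igfbp4 have r from 0.790 to 0.916 with each other. Of these 6 pairs 3 passed for r after adjustment, and only Igf2 with Igfbp2 passed for rho.

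Marker genes of the tissues in which Igf2 and Igfbp2 are known to be expressed were measured on the same arrays. Each gene's log2 values were centred on their own mean across arrays, and a list's level is the average of its centred genes. Of 20 leptomeningeal and fibroblast markers 17 were tested, and 15 were higher on average after inactivated baculovirus and 2 lower, with 0 called and a median log2 fold change of 0.18. Of all genes tested 55.7% were higher. Other lists leaned the same way, with 14 of 15 tested microglia and macrophage markers and 9 of 11 pericyte and smooth muscle markers higher. Astrocyte markers had 5 of 13 higher and oligodendrocyte markers 4 of 11. Their level lay between 0.02 and 0.18 on the baculovirus arrays and stood at 0.10, -0.08, -0.36 and -0.03 on PBS replicates 1 to 4. Their summed intensity ran from 1746 to 2076 and from 1332 to 1981. Mgp, Dcn and Col3a1, a matrix inhibitor of calcification, a small proteoglycan and a fibrillar collagen, were the brightest. Mgp measured 461, 438, 433 and 406 after inactivated baculovirus and 509, 349, 360.2 and 326 after PBS, high on PBS replicate 1 and low on the rest of that group, as Igfbp2 was. Dcn measured 186, 143, 152 and 123 and then 206, 128, 123 and 111, also highest on PBS replicate 1. Col3a1 did not share this order, with 170.0, 129, 212 and 129 after inactivated baculovirus and 139, 121, 99.6 and 160.1 after PBS, where replicate 4 was the highest.

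Of 17 choroid plexus markers 11 were tested, with 10 higher, 1 lower, 0 called and a median log2 fold change of 0.25. The share higher among all genes tested was 55.7%. Their level was 0.59, 0.23, -0.01 and -0.16 on baculovirus replicates 1 to 4. It was 0.28, 0.22, 0.02 and -1.17 on PBS replicates 1 to 4. The summed intensity ran from 2778 to 3835 after inactivated baculovirus and from 903 to 3503 after PBS. Ttr, the transthyretin gene that defines this epithelium, measured 47.7 on PBS replicate 4, while no other array was below 1563. PBS replicate 4 thus had little choroid plexus signal and low Igf2, while PBS replicate 3 had low Igf2 with a choroid level near the mean and the lowest leptomeningeal level.

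Igf2 followed the leptomeningeal level at r = 0.808 (exact permutation p = 0.0102, Benjamini-Hochberg 0.0561 over 11 relations) and rho = 0.786 (exact permutation p = 0.0279, Benjamini-Hochberg 0.102). Without PBS replicates 3 and 4 r was 0.515. These arrays lie farthest from the median of Igf2, and leaving them out narrows its range. A lower r therefore does not show that the relation rests on them. With the choroid level Igf2 had r = 0.682 (exact permutation p = 0.0569, Benjamini-Hochberg 0.187) and rho = 0.810 (exact permutation p = 0.0218, Benjamini-Hochberg 0.102), and r = 0.885 without the same arrays. Igfbp2 had r = 0.813 with the leptomeningeal level (exact permutation p = 0.00365, Benjamini-Hochberg 0.0401), rho = 0.833 (exact permutation p = 0.0154, Benjamini-Hochberg 0.102), and r = 0.749 without those arrays. Its r with the choroid level was 0.628 (exact permutation p = 0.0681, Benjamini-Hochberg 0.187) and rho 0.738 (exact permutation p = 0.0458, Benjamini-Hochberg 0.126), and r was 0.441 without them. In bulk tissue fewer cells of a type and less RNA per cell cannot be told apart. The part of meningeal and choroid plexus tissue in the Igf2 and Igfbp2 differences was not tested.

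**Figure D4:**
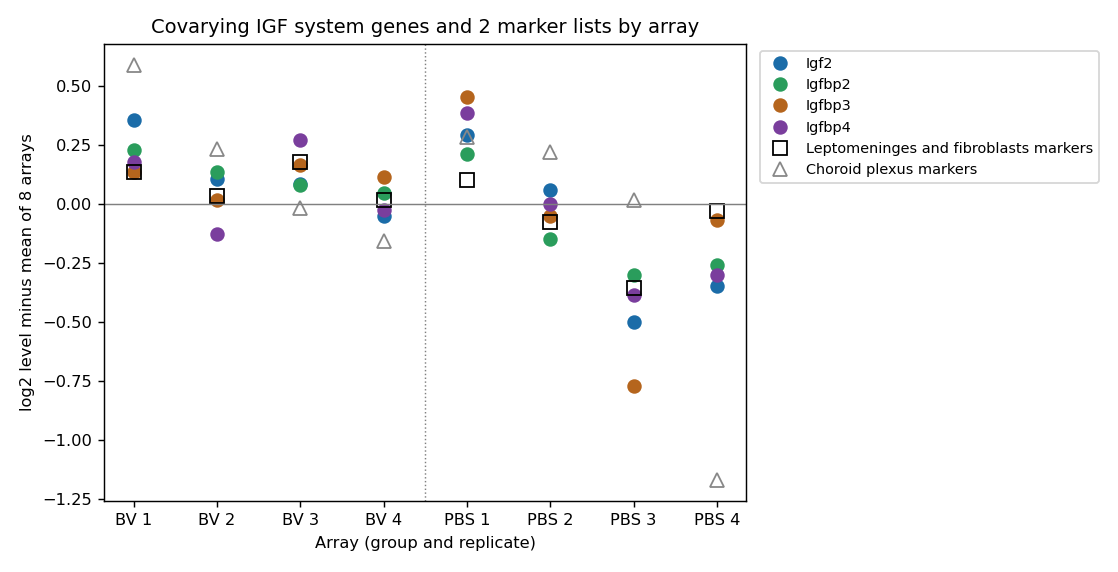
log2 level minus the mean of the 8 arrays (vertical axis) of Igf2, Igfbp2, Igfbp3 and Igfbp4 (filled circles) and of the leptomeningeal (squares) and choroid plexus (triangles) marker lists on each array (BV, inactivated baculovirus). The choroid list drops to -1.17 on PBS replicate 4, and the 4 genes and the leptomeningeal list are lowest on PBS replicate 3.

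Of the members, only Igf1 and Igfbp7 were set beside markers of other cell types, and none of these relations passed 0.05. Igf2 and Igfbp2 were not set beside those lists. Whether their relation to the leptomeningeal level is particular to that list was not tested. Igf1 had r = 0.266 with the level of 15 tested microglia and macrophage markers (exact permutation p = 0.524, Benjamini-Hochberg 0.824, and rho = 0.0952, exact permutation p = 0.840), and r = -0.735 without PBS replicates 2 and 3. Igfbp7 had r = -0.311 with endothelial markers (exact permutation p = 0.440, Benjamini-Hochberg 0.808, and rho = -0.357, exact permutation p = 0.389), and 0.388 without baculovirus replicates 1 and 4. With pericyte and smooth muscle markers it had r = 0.428 (exact permutation p = 0.288, Benjamini-Hochberg 0.634, and rho = 0.571, exact permutation p = 0.151), and 0.262 without the same arrays. For beta-actin the gap of 3′ over 5′ signal on the log2 scale, a measure of RNA quality and labelling, overlapped between the groups (0.364 to 0.722 after inactivated baculovirus, 0.408 to 0.624 after PBS). Its r was 0.0448 with Igf2 (rho = -0.238, with exact permutation p of 0.917 for r and 0.582 for rho) and 0.0198 with Igfbp2 (rho = -0.214, with exact permutation p of 0.962 for r and 0.619 for rho). The Benjamini-Hochberg value was 0.962 for both, and without PBS replicates 3 and 4 these r were -0.645 and -0.525. The striatal marker Ppp1r1b, which encodes DARPP-32, was at 976 or above on every array. Its presence does not measure how much of each sample was striatum. Of 19 tested striatal projection neuron markers 5 were higher and 14 lower after inactivated baculovirus, with 0 called and a median log2 fold change of -0.06. Their level ran from -0.21 to 0.19 on the baculovirus arrays and from -0.20 to 0.19 on the PBS arrays. Among cortical glutamatergic markers Slc17a7 was lowest on PBS replicate 3, at 454 against 909 or more elsewhere. Nrn1 and Neurod6, the next brightest of that list, were each highest on that array, at 897.7 and 255.

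The genes most like the 3 members with the widest range over the arrays were listed by r over all tested genes. These members were Igfbp3, Igf2 and Igfbp4. Nearest to Igfbp3 were Pgap4 (r = 0.967), Rnf208 (0.962), Tmem115 (0.959), the secreted glutathione peroxidase gene Gpx3 (0.959) and Atxn7l1 (0.958). Nearest to Igf2 were Spsb1 (r = 0.971), the kinase gene Sik2 (0.947), the phosphate transporter gene Slc20a2 (0.944), the phosphatase gene Ptpn14 (0.942) and the protease inhibitor gene Spint2 (0.937). Nearest to Igfbp4 were the nociceptin receptor gene Oprl1 (r = 0.948), Nt5c (0.941), Spint2 (0.910), the transcription factor gene Usf2 (0.906) and Armc9 (0.900). Gpx3 measured 97.2 on PBS replicate 3 and 173 or more on the other arrays, and Spint2 153 there and 276 on PBS replicate 1. These r describe 8 arrays, were picked as the highest of many genes, and have no test.

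Of 20 other genes of the IGF system, 19 were on the array and 8 passed the filter. Of these 6 were higher on average and 2 lower, against 55.7% higher of all genes tested, with 0 called and a median log2 fold change of 0.08. Lrp1, an endocytic receptor that also binds some IGF binding proteins, measured 482, 481, 499.8 and 504.1 after inactivated baculovirus and 442, 473, 418 and 452 after PBS. Its groups did not overlap, at a log2 fold change of 0.14 (95% interval -0.01 to 0.28, limma adjusted p = 0.742). Such groups were found for 1 of these 8 genes, against 3.86% of all tested probe sets. Ins1, an insulin gene whose near-identical copy Ins2 was below the filter, stood at 0.24 (95% interval -0.05 to 0.54, limma adjusted p = 0.758), and its probe set could share signal with that copy. Ide, the insulin-degrading enzyme, stood at 0.09 (limma adjusted p = 0.826).

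Of the other 5, the stanniocalcin gene Stc1 stood at 0.11, the proprotein convertase gene Furin at 0.06, Igfbpl1 at 0.06, the cation-dependent mannose 6-phosphate receptor gene M6pr at -0.03 and the protease gene Htra1 at -0.01. Adjusted p in limma lay between 0.742 and 0.988 for the representative probe sets of these 8 genes. With the mean of all probe sets of a gene, Lrp1 stood at 0.23, Ide at 0.15 and Stc1 at -0.07. Their limma adjusted p was then 0.687, 0.807 and 0.933. Below the filter were Igfbp1, the acid-labile subunit gene Igfals, the insulin receptor gene Insr, Insrr, Ghr, Stc2, Ins2, Pappa2 and the RNA-binding protein genes Igf2bp1, Igf2bp2 and Igf2bp3.

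Downstream of the IGF1 receptor, 29 of 38 listed genes were on the array and 28 were tested. Of these 14 had a higher and 14 a lower mean, with 0 called and a median log2 fold change of -0.00187. An unadjusted p under 0.05 was reached by 3 of the 28, against 6.58% of all genes tested. Rptor, the raptor subunit of mTOR complex 1, measured 154, 152, 164 and 176 after inactivated baculovirus and 146, 144, 136 and 130 after PBS, so the groups did not overlap. On the log2 scale the difference was 0.19 (limma adjusted p = 0.721, 95% interval 0.01 to 0.37). Rps6kb1, the S6 kinase that this complex activates, stood at -0.22 (95% interval -0.44 to -0.01, limma adjusted p = 0.721), with 215 on PBS replicate 3 and at most 176 elsewhere. Pik3r2, a regulatory subunit of phosphoinositide 3-kinase, stood at 0.18 (95% interval 0.01 to 0.34, limma adjusted p = 0.721), with 236 to 264 after inactivated baculovirus and 205 to 232 after PBS and no overlap. None of the 3 passed. The groups did not overlap for 2 of the 28, against 3.86% of all tested probe sets. Picking genes by the smallest p favours such groups. With the mean of all probe sets of a gene, the log2 fold change was 0.19 for Rptor, -0.11 for Rps6kb1 and 0.05 for Pik3r2. The substrate gene Irs1 lay below the filter.

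**Figure D5:**
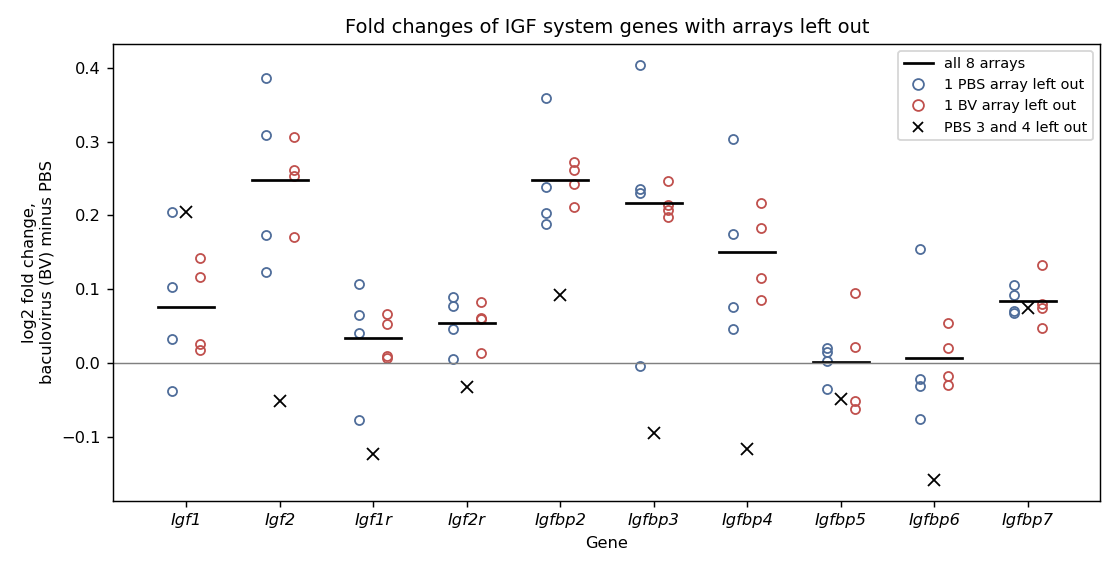
log2 fold change of each IGF gene (vertical axis, inactivated baculovirus, BV, minus PBS) with all 8 arrays (line), with 1 PBS array (blue circles) or 1 baculovirus array (red circles) left out, and with PBS replicates 3 and 4 both left out (crosses). Igfbp2 stays above 0 in each case, from 0.09 to 0.36, while 7 of the 10 crosses lie below 0.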

How the data were processed

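Expression was measured on 8 arrays, 4 for each group. The authors deposited linear intensities. The submitters' processing notes name GCOS, Affymetrix's array software, and GCRMA, a normalization method, without saying which made these values. Their algorithm and which labelling kit each array had are not given in the sources used here. Each array had been scaled, since the mean with 2% trimmed at each end was 100.02 on all of them. The 57 control probe sets among the 31099 were dropped. The platform annotation gives 1 symbol to 20826, several to 436 and none to 9780. All 23 member probe sets matched a RefSeq gene number with the same symbol.

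Values were turned into log2(intensity + 16) without further normalization, as array medians spanned 0.11, under a limit of 0.2. Probe sets above the 40th percentile of mean level (intensity near 26.0), 18625 in all, entered limma 3.58.1 (R 4.3.3), two-sided and without a block, with eBayes and trend. The fit was tested on simulated data with independent arrays, which does not cover arrays that share an animal. Correlation tests were exact and two-sided over all orders of the arrays. Precision is limited by having 8 arrays: the median 95% interval reached 0.23 to either side. Genes named were all members, every tested gene of the other IGF list, the 3 signalling genes with the smallest p, the brightest markers of a list set beside a result, and the 5 genes most like each of the 3 members with the widest range. Ttr, Ppp1r1b and Slc17a7 are among the brightest of their lists. Members and lists were chosen with earlier results of these data known.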

Additional observations from a re-analysis of the deposited data

Results flagged for a closer look

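Among the 78 groups looked at, only the PBS arrays of Ide, the insulin-degrading enzyme, had an array far from the others. PBS replicate 1 measured 198, while the other PBS arrays lay between 233 and 235. Its gap to the nearest of them was 0.931 of the range of the group on the log2 scale, above Dixon's 95% critical value for 4 samples. Chance gives about 1 in 20 such groups, and 78 groups were looked at. The single marker genes Ttr and Slc17a7 were not among them, although each had a PBS array far below the others. Ttr measured 47.7 on PBS replicate 4 and at least 1787 on the other PBS arrays. Slc17a7 measured 454 on its lowest PBS array and at least 1038.7 on the others of that group.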

How the results depend on the processing

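No IGF member was called under any of 19 other settings, limma in each but the methods' t-test, with adjusted p between 0.506 and 1. Calls over all probe sets and over the other IGF-system and signalling genes were counted in the same settings except the mean of all probe sets of a gene, and were 0 in each. Of 23 member probe sets, 14 to 19 had a higher mean with 1 array left out, 12 without PBS replicates 3 and 4 together and 14 with median centring. With both those PBS arrays left out the log2 fold changes were -0.0517 for Igf2, -0.12 for Igf1r, -0.0320 for Igf2r, -0.0943 for Igfbp3, -0.12 for Igfbp4, -0.0483 for Igfbp5, -0.16 for Igfbp6, -0.0548 for Igfbpl1, 0.0752 for Htra1 and 0.0225 for M6pr. Median centring gave -0.0278 for Igfbp5 and -0.0222 for Igfbp6, quantile normalization 0.00380 for Htra1, and the mean of all probe sets of a gene -0.0227 for Igf2r and -0.0719 for Stc1. The cause was not tested. With 1 array left out the range was -0.0382 to 0.20 for Igf1, -0.0774 to 0.11 for Igf1r, -0.00456 to 0.40 for Igfbp3, -0.0618 to 0.0948 for Igfbp5 and -0.0759 to 0.15 for Igfbp6. It was -0.0549 to 0.0195 for Htra1, -0.0606 to 0.0250 for M6pr and -0.0916 to 0.22 for Igfbpl1. Igf2, Igf2r, Igfbp2, Igfbp4 and Igfbp7 kept their sign with any 1 array left out. Replicate numbers did not pair the arrays: same-numbered arrays had correlations of deviations between -0.00511 and 0.0160, and 0 of 4 baculovirus arrays correlated best with its own number. With the replicate number as a block 0 probe sets were called, and Igfbp2 had an adjusted p of 0.785. The filter at the 60th percentile left Igfbp3 and Igfbp4 untested. Dim probe sets and the number of arrays limit what could be detected, and no scanner files were used, so background correction and slide were not varied.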
